A study of Mus musculus with 24 samples.

Results

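Chemokines are small secreted proteins that direct the movement of leukocytes, and they act through G protein-coupled receptors on the responding cells. The 60 genes described here are those of the 41388 genes in the files whose symbol is Ccl, Cxcl, Cx3cl, Xcl, Ccr, Cxcr, Cx3cr, Xcr or Ackr followed by a digit, chosen by name and not by level. They were measured by total RNA sequencing in 24 libraries of inguinal white fat, a subcutaneous depot of the groin, from male mice. All mice carried floxed alleles of Nr3c2, which encodes the mineralocorticoid receptor. FMRKO mice also carried Adipoq-Cre, in which the adiponectin promoter drives Cre recombinase in adipocytes, so that the other cells of the tissue keep the receptor, and control mice carried the floxed alleles alone. The 6 groups of 4 libraries were FMRKO and control mice on high-fat diet (HFD), FMRKO and control mice given corticosterone (the major adrenal glucocorticoid in rodents), and FMRKO and control mice on chow. The sources used here do not state age, the dose and route of corticosterone, a vehicle group or the composition and length of the diet. The chow groups served as the baseline of both treatments, and the comparisons of HFD and of corticosterone with chow share those 8 libraries.

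In fat tissue, chemokine ligands come from adipocytes, fibroblast-like stromal cells, endothelium and resident macrophages, while most of the receptors sit on leukocytes. The axis of Ccl2 and its receptor Ccr2 brings monocytes into the tissue, Cxcl12 retains Cxcr4-bearing cells, Cxcl9, Cxcl10 and Cxcl11 are induced by interferon and attract T and NK cells through Cxcr3, and the atypical receptors (Ackr) bind chemokines without G protein signalling and remove or transport them. Ccr7, Cxcr5 and the ligands Ccl19, Ccl21 and Cxcl13 place lymphocytes and dendritic cells within lymph nodes, one of which lies inside the mouse inguinal fat pad.

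A promoter window of 300 bases around the gene start was found in RefSeq (GRCm38.p6) for 45 of the 60 genes, with 52 windows in all. The windows of 4 ligands are printed, because Cxcl13 and Ccl8 had the largest rise and the largest fall under corticosterone among the ligands, and the neighbouring genes Cxcl9 and Cxcl10 on chromosome 5 had log2 changes of opposite sign on HFD. Capitals mark matches on either strand to the interferon-stimulated response element (ISRE, spelled GAAA, any 2 bases, GAAA) or to the NF-kB consensus.
Cxcl13: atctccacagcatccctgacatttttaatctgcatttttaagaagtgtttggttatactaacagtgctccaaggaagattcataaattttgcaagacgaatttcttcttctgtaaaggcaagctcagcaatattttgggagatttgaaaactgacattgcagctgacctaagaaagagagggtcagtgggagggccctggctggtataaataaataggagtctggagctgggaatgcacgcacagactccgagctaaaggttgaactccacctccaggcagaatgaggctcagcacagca
Cxcl10: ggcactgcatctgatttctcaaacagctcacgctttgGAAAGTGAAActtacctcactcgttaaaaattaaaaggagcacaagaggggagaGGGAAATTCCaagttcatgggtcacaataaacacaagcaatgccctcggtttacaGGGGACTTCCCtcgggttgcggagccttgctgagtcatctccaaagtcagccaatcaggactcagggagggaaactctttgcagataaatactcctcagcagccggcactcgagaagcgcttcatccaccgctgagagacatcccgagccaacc
Cxcl9: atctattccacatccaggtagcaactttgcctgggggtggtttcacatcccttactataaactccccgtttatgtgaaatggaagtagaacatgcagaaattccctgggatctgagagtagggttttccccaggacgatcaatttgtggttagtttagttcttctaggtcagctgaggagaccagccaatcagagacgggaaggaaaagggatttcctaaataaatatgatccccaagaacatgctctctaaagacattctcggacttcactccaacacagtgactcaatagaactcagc
Ccl8: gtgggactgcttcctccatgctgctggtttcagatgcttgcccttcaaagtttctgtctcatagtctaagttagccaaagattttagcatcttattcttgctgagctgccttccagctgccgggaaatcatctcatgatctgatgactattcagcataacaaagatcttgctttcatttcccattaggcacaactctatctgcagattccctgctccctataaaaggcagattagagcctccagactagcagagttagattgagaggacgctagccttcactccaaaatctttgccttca
These windows lie at chr5:95956689-95956988 on the plus strand (Cxcl13), chr5:92348840-92349139 on the minus strand (Cxcl10), chr5:92328030-92328329 on the minus strand (Cxcl9) and chr11:82114935-82115234 on the plus strand (Ccl8), all in GRCm38.p6. The Cxcl10 window held 1 ISRE and, downstream of it, 3 NF-kB matches, of which a pair overlaps. The other 3 windows held neither motif, which says only that these letters are not in these windows. Among all 52 windows of chemokine and receptor genes, 12 (23.1%) held an NF-kB match and 3 (5.77%) an ISRE, beside 8.46% and 3.44% of all 32851 RefSeq windows. The half-site of the glucocorticoid response element (AGAACA) was in 9 of the 52 windows (17.3%) and in 19.0% of all windows. The interferon-activated GAS motif (TTCNNNGAA) was in 3 of the 52 (5.77%) and in 8.3% of all windows. The full glucocorticoid response element (AGAACA, any 3 bases, TGTTCT) was in 0 of the 52 and in 0.00913% of all windows. The motifs were searched on both strands and a match is a description of the letters.

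Total counts ran from 17925109 to 40427675 per library, and 50 of the 60 genes passed the filter on low counts. Values per library are CPM (reads of a gene relative to the library's total, scaled by TMM), in order of replicate number. Nr3c2 itself ran at 7.73 to 12.2 CPM in corticosterone FMRKO libraries against 14.1 to 18.4 in their controls, and at 12.7 to 15.7 on HFD in FMRKO libraries against 18.5 to 25.0 in controls. On chow the ranges overlapped, at 11.3, 22.0, 17.7 and 25.8 CPM in the FMRKO libraries against 17.6 to 28.7 in the controls, so there the targeted gene does not separate the libraries labelled FMRKO from the controls. The sources used here do not state which exons the floxed alleles remove. Nothing in the labels ties each library to its own animal, and p-values therefore cover library-to-library spread, which may be technical. The titles of the chow libraries carry a leading number and the others do not, and if that marks a batch, it cannot be told apart from either treatment. The adipocyte markers were present in every library, with Adipoq between 802 and 1677 CPM. Skeletal muscle markers were high in 3 libraries (chow FMRKO replicate 5, HFD control replicate 3 and corticosterone control replicate 2), and epithelial markers in 3 (chow FMRKO replicate 3 and corticosterone FMRKO replicates 3 and 4).

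Per length, on the authors' deposited RPKM scale, the 9 members with the highest mean level were ligands. Ccl6 (mean 77.6 RPKM over the 24 libraries), a macrophage and neutrophil chemokine of rodents, was the highest, ahead of the eosinophil attractant Ccl11 (40.0 RPKM), the monocyte attractant Ccl8 (35.7 RPKM), Cxcl13 (33.0 RPKM) and Cxcl14 (31.6 RPKM). Ccl9, Ccl5, Cxcl12 and Cxcl9 followed with mean levels of 24.1, 23.5, 21.5 and 12.9 RPKM. The highest receptor was Ackr3 (12.7 RPKM), an atypical receptor that takes up Cxcl12, and the highest signalling receptor was Cxcr4 (7.71 RPKM). The spread over libraries was wide for several of them: the RPKM of Ccl8 ran from 1.31 to 110, that of Cxcl13 from 1.16 to 116 and that of Ccl5 from 0.783 to 134, whereas Ackr3 stayed between 7.68 and 18.1. The 10 genes that did not pass the filter were Ccl1, Ccl20, Ccl21a, Ccl21b, Ccl26, Ccl27b, Cxcl3, Cxcl5, Cxcl15 and Cxcr1. Of these, Ccl21a had 9 reads in all, in 4 libraries, and Ccl21b had 0 reads. Ccl19, Ccl21a, Ccl21b and Ccl27b have near-identical copies in the mouse genome, and how multi-mapped reads were handled is not stated, so their low counts are uncertain.

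**Figure D1:**
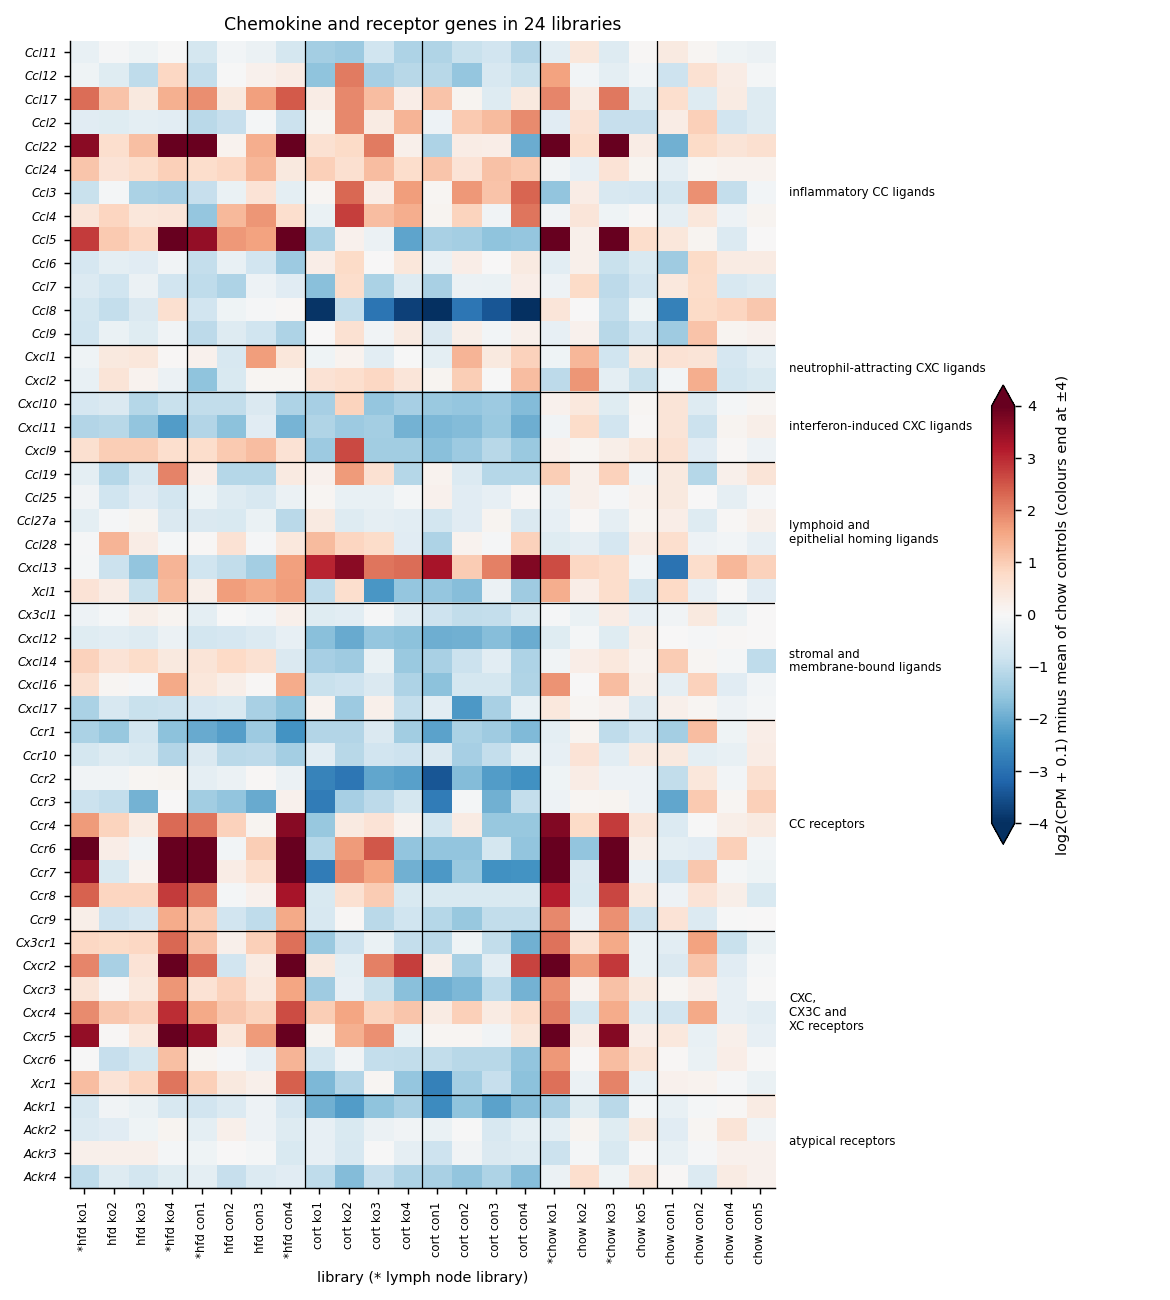
Heat map of 49 tested genes (grouped by role, top to bottom) in 24 libraries (columns, by group, asterisks for lymph node libraries); colour is log2 of CPM plus a small constant, minus the mean of the 4 chow control libraries. The corticosterone columns are blue for Ccr2, Ccl8, Cxcl12 and Ackr1 and red for Cxcl13, and the asterisked columns are red for Ccr6, Ccr7, Cxcr5 and Ccl22.

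Lymphocyte markers were high in 6 libraries, called lymph node libraries here, and the lymphoid members of the family were high in the same libraries. The summed CPM of 19 lymphocyte markers was 355 to 1394 in HFD FMRKO replicates 1 and 4, HFD control replicates 1 and 4 and chow FMRKO replicates 1 and 3, against 9.93 to 111 in the other 18 libraries, and none of the 19 markers was at 0 in either set. Glycam1, a mucin of lymph node venules, was at 5.31 to 27.8 CPM in the 6 lymph node libraries and at 0 to 9.11 CPM in the others. The value of 9.11 CPM was in corticosterone FMRKO replicate 3, so the 18 others are not shown to be free of lymph node. Madcam1, like Glycam1 a listed marker of lymph node stroma, overlapped, at 0.387 to 3.10 CPM against 0 to 2.01 in the others. The summed CPM of all 10 listed stroma markers did not separate the libraries either, at 431 to 683 against 371 to 1028. The name lymph node libraries therefore rests on the lymphocyte markers. Because the split was made on lymphocyte genes, the values below describe it and carry no test. Of the 50 tested genes, 8 lay higher in all 6 lymph node libraries than in any other library: Ccr4, Ccr6, Ccr7, Ccr8, Cxcr5, Xcr1, Ccl5 and Ccl22. The same held for 2.68% of all genes tested.

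Ccr7, the receptor that brings naive T cells and mature dendritic cells into lymph nodes, had 13.7 and 49.4 CPM in the HFD FMRKO lymph node libraries, 20.04 and 54.0 in the HFD control ones and 60.8 and 49.7 in the chow FMRKO ones, against 0.0736 to 4.46 CPM elsewhere (medians 49.6 and 0.806). Cxcr5, the receptor of follicular B cells, was at 11.4 to 41.3 CPM in lymph node libraries against 0.704 to 3.53 in the others. Ccl5, a product of activated T and NK cells, was at 26.3 to 108 CPM against 0.786 to 12.6. These ranges lie apart by a wide margin for Ccr7 and Cxcr5 and more closely for Ccl5. Ccr6 of B cells was at 5.10 to 22.4 CPM in lymph node libraries against 0 to 1.56, and Ccl22, made by mature dendritic cells, at 8.86 to 32.3 against 0.0856 to 3.03. Cxcl13, the ligand of Cxcr5, did not follow the split over all 24 libraries. It had 6.25 to 68.3 CPM in lymph node libraries against 1.32 to 143 in the others, which include the corticosterone libraries at 22.3 to 143. On HFD the lymph node libraries lay above the others. HFD FMRKO replicates 1 and 4 had 10.4 and 28.4 CPM, and HFD control replicate 4 had 34.7. HFD control replicate 1 had 6.25 CPM, close to the 3.59 to 6.06 CPM of the HFD libraries not called lymph node libraries. On chow, FMRKO replicates 1 and 3 had 68.3 and 17.8 CPM, against 1.32 to 27.9 in the other chow libraries. Ccl19, a ligand of Ccr7, reached no more than 0.785 CPM in any lymph node library. The lymph node libraries fell 2 to HFD FMRKO, 2 to HFD control, 2 to chow FMRKO and 0 to the other groups, so each comparison below is given with all 24 libraries and with the 18 others.

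**Figure D2:**
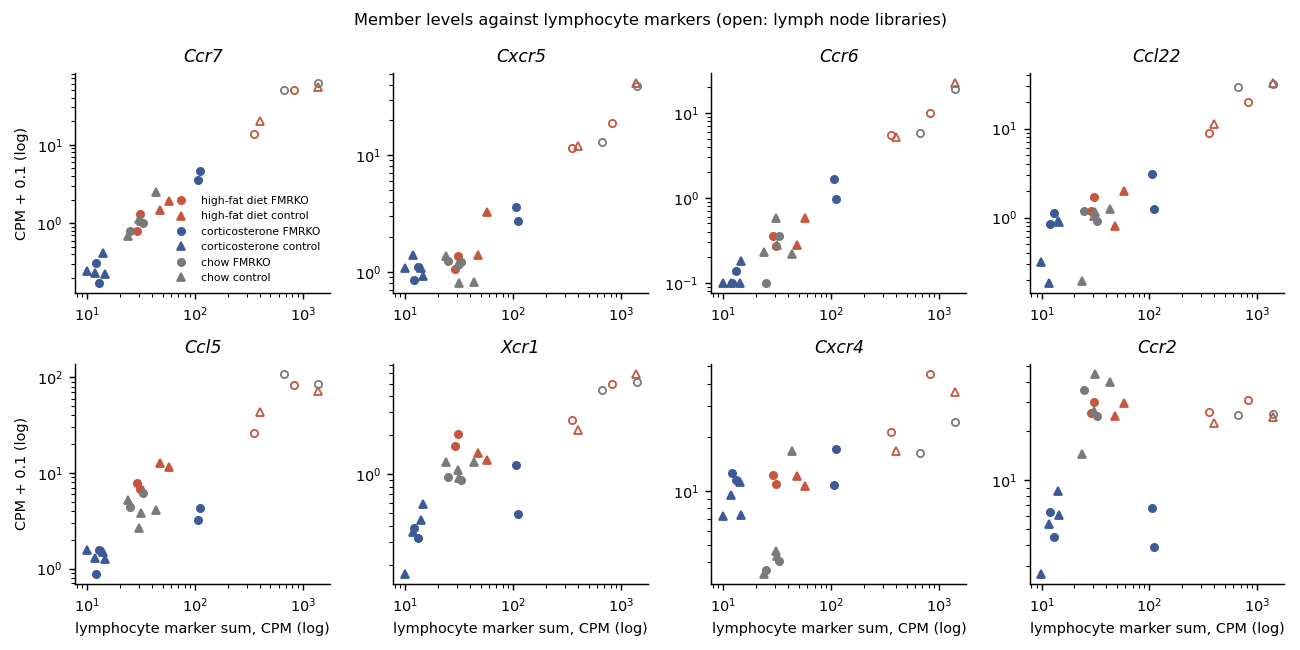
Levels (CPM, log axis) of 8 genes against the summed CPM of 19 lymphocyte markers (log axis) in 24 libraries; colours stand for diet or treatment, circles for FMRKO, triangles for control and open symbols for lymph node libraries. Ccr7, Cxcr5, Ccr6, Ccl22 and Ccl5 climb with the markers, with Ccr7 at 13.7 to 60.8 CPM in the open symbols, while Ccr2 is at 22.1 to 30.9 CPM in them and within the range of the other HFD and chow libraries.

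Under corticosterone most of the receptors and the stromal ligands of the family were lower than on chow, and a few ligands were higher. Averaged over FMRKO and control libraries, 30 of the 50 tested genes passed an adjusted p of 0.05 in edgeR's quasi-likelihood test (Benjamini-Hochberg over all 19717 genes tested), beside 57.7% of all genes tested. Of these, 25 were lower, beside 32% of all genes, and 5 were higher, beside 25.6%. The median log2 fold change was -1.07 over the 50 genes and -0.13 over all genes tested. Without the lymph node libraries 23 genes were lower and 5 higher of 48 tested, beside 27% and 27.4% of all genes. Within genotypes, 25 genes passed in FMRKO libraries (41.1% of all genes) and 20 in controls (42.9% of all genes), and without the lymph node libraries 15 (33.8% of all genes) and 24 (48.1% of all genes). In a whole tissue, fewer cells of a type and less RNA per cell cannot be told apart. Adipocyte markers moved with the treatment: 6 of 8 were higher and 0 lower averaged over genotypes, with a summed CPM of 24627 to 29747 in corticosterone libraries against 10212 to 20371 on chow, without overlap. Their part in the results on corticosterone was not tested.

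The monocyte receptor Ccr2 fell. It had 4.38, 3.80, 6.64 and 6.29 CPM in corticosterone FMRKO libraries and 2.58, 8.53, 6.02 and 5.30 in corticosterone controls, against 25.3, 35.5, 25.1 and 24.7 in chow FMRKO libraries and 14.4, 39.5, 26.4 and 44.4 in chow controls. All 8 corticosterone libraries lay below all 8 chow libraries, and the log2 fold change was -2.43 ± 0.22 (SE, adjusted p = 2.08e-08), the same without the lymph node libraries. Its main ligand Ccl2 went the other way. Ccl2 had 9.28, 33.2, 10.8 and 22.4 CPM in corticosterone FMRKO libraries and 7.53, 17.7, 20.8 and 32.3 in corticosterone controls, against 6.30, 12.8, 4.46 and 4.51 in chow FMRKO libraries and 10.7, 16.7, 5.05 and 6.03 in chow controls. The groups overlapped, and the log2 fold change averaged over genotypes was 1.22 ± 0.33 (adjusted p = 0.00324). Within genotypes Ccl2 passed in FMRKO libraries with all libraries and not without the lymph node ones. In controls it passed in neither fit. Ccl7, another ligand of Ccr2 encoded beside Ccl2, had 1.66 to 8.97 CPM under corticosterone against 2.59 to 9.42 on chow and did not pass the test.

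Ccl8, made by tissue macrophages, showed the largest fall of a ligand. It had 1.47, 12.3, 3.03 and 1.71 CPM in corticosterone FMRKO libraries and 0.717, 3.10, 2.15 and 1.03 in corticosterone controls, against 33.1, 24.2, 12.4 and 21.3 in chow FMRKO libraries and 3.60, 40.8, 43.3 and 49.97 in chow controls. The corticosterone library at 12.3 CPM (FMRKO replicate 2) and the chow control at 3.60 (replicate 1) made the groups overlap, and the log2 fold change was -3.29 ± 0.51 (adjusted p = 1.53e-05). Ccl8 and Ccr2 fell in both genotypes, Ccl8 by 2.31 and Ccr2 by 2.38 on the log2 scale in FMRKO libraries and by 4.28 and 2.47 in controls. Of 14 macrophage markers, 9 were higher and 0 lower in FMRKO libraries (median log2 change 0.82), and 0 were higher and 2 lower in controls (median 0.15). Of all 19717 genes tested, 3989 were higher and 4113 lower in FMRKO libraries, and 3986 and 4467 in controls. Averaged over genotypes 8 of the 14 markers were higher and 1 lower. The summed CPM of the 14 markers was 1454 to 2567 under corticosterone against 705 to 2429 on chow. Their part in these falls was not tested. Chow control replicate 1, low in Ccl8 and Ccr2, also had the lowest macrophage sum.

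The other inflammatory CC ligands split. Ccl3 and Ccl4, made by activated macrophages, rose by 1.58 ± 0.48 (adjusted p = 0.0086) and 1.63 ± 0.55 (adjusted p = 0.0162) on the log2 scale at low levels. Ccl3 had 0.920 to 4.79 CPM under corticosterone against 0.223 to 3.32 on chow, and did not pass without the lymph node libraries (1.39, adjusted p = 0.0603). Ccl4 had 0.147 to 1.90 CPM against 0.129 to 0.312. It did not pass when corticosterone FMRKO replicate 2 or corticosterone control replicate 4 was left out, nor with a replicate block, with adjusted p-values up to 0.074 over the alternatives. Ccl24, an eosinophil attractant of macrophages, had 8.43, 6.89, 10.4 and 7.11 CPM in corticosterone FMRKO libraries and 9.50, 6.46, 9.94 and 9.20 in corticosterone controls, against 3.96, 3.47, 6.47 and 4.71 in chow FMRKO libraries and 3.41, 4.55, 4.82 and 4.80 in chow controls. It rose by 0.91 ± 0.16 (adjusted p = 4.83e-05), with an overlap of 1 library on each side. Ccl5 fell by 2.98 ± 0.68 with all libraries and by 1.28 without the lymph node libraries (adjusted p = 0.00156).

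Other CC receptors fell beside Ccr2. Ccr1, a receptor of Ccl3 and Ccl5 on monocytes, fell by 1.26 ± 0.28 (adjusted p = 0.000732). Ccr10, a skin-homing receptor, fell by 0.86 ± 0.19 (adjusted p = 0.000659), and Ccr9, the receptor of Ccl25, by 1.52 ± 0.46, or 0.61 without the lymph node libraries. Ccr3, Ccr4, Ccr7 and Ccr8 passed with all libraries and not without the lymph node ones, where Ccr8 was not tested. Of the 7 other signalling receptors tested, Cxcr3, Cxcr6, Cx3cr1 and Xcr1 fell, the last of these marking cross-presenting dendritic cells, with log2 changes of -1.94, -1.50, -1.81 and -2.13 with all libraries and -1.48, -1.07, -1.22 and -1.22 without the lymph node libraries. Lymphocyte markers moved with these receptors, with 12 of 19 lower with all libraries and 1 of 19 without the lymph node ones. Without the lymph node libraries 0 of 19 were lower in FMRKO (median log2 change 1.38) and 5 of 19 in controls (median -1.64), and the difference between genotypes was not tested for the list. Of all 20005 genes tested there, 2929 were lower in FMRKO libraries and 4681 in controls. Corticosterone FMRKO replicates 2 and 3 had lymphocyte sums of 111 and 106 CPM, against 9.93 to 14.6 CPM in the other 6 corticosterone libraries. Markers of dendritic cells were lower for 6 of 7 and 5 of 7, and NK cell markers for 5 of 6 and 4 of 6. Their part in the fall of the receptors was not tested.

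The stromal ligand Cxcl12 had the smallest standard error of the 50 tested genes under corticosterone. It had 82.7, 65.0, 90.5 and 84.9 CPM in corticosterone FMRKO libraries and 68.1, 68.9, 80.4 and 66.4 in corticosterone controls, against 190, 248, 189 and 308 in chow FMRKO libraries and 267, 254, 270 and 264 in chow controls. The groups stood far apart, at -1.71 ± 0.10 on the log2 scale (adjusted p = 4.17e-11). Its signalling receptor Cxcr4 had 7.17 to 17.1 CPM under corticosterone, within the 3.34 to 24.2 CPM of the chow libraries, and did not pass. Without the lymph node libraries it rose by 1.09 (adjusted p = 0.0104). Ackr3 had 27.5 to 47.9 CPM against 26.7 to 54.9, with a log2 change of -0.23 ± 0.13 that did not pass and of -0.33 without the lymph node libraries (adjusted p = 0.0225). Within genotypes Ackr3 was called lower in controls, with and without the lymph node libraries, and in FMRKO libraries in neither fit.

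Cxcl14, a ligand made by fibroblasts and adipocytes, had 22.3, 20.6, 46.5 and 19.9 CPM in corticosterone FMRKO libraries and 22.5, 30.3, 41.5 and 23.8 in corticosterone controls, against 50.6, 66.9, 75.0 and 61.3 in chow FMRKO libraries and 112, 58.6, 52.7 and 27.6 in chow controls. Only chow control replicate 5 lay within the corticosterone range, and the log2 change was -1.15 ± 0.25 (adjusted p = 0.000536). Ccl11, also called eotaxin, had 20.2 to 32.7 CPM under corticosterone against 38.9 to 76.1 on chow, with no overlap and a log2 change of -1.08 ± 0.14 (adjusted p = 2.04e-06). Cxcl16, a membrane-bound ligand of Cxcr6, had 2.65 to 5.70 CPM against 6.16 to 29.5, also with no overlap, and a log2 change of -1.52 ± 0.31 (adjusted p = 0.000295). Cx3cl1, the membrane-bound ligand of Cx3cr1, had 3.33 to 6.38 CPM against 5.22 to 8.69 and fell by 0.57 ± 0.12 (adjusted p = 0.000492). Fibroblast markers moved with these ligands, with 6 of 8 lower and 1 higher and a summed CPM of 2801 to 5789 against 5385 to 16631 on chow, and their part in the result was not tested.

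Averaged over genotypes with all libraries, Ackr1 and Ackr4 were the atypical receptors that fell. Ackr1, which carries chemokines across venular endothelium, had 2.65, 2.12, 3.32 and 4.11 CPM in corticosterone FMRKO libraries and 1.72, 3.28, 2.27 and 3.12 in corticosterone controls, against 4.13, 7.28, 4.85 and 9.73 in chow FMRKO libraries and 8.38, 9.65, 10.7 and 12.9 in chow controls. The groups met without overlap at 4.11 and 4.13 CPM, and the log2 change was -1.54 ± 0.19 (adjusted p = 8.19e-07). Ackr4, a scavenger of Ccl19, Ccl21 and Ccl25, had 2.87 to 5.11 CPM under corticosterone against 6.66 to 15.5 on chow and fell by 1.48 ± 0.16 (adjusted p = 2.19e-07). Endothelial markers were lower for 7 of 8 and higher for 1, with a summed CPM of 485 to 635 against 593 to 980, and their part in the fall of Ackr1 was not tested. Ackr2, a scavenger of inflammatory CC chemokines, passed only without the lymph node libraries, with a log2 change of -0.41 (adjusted p = 0.0309). Cxcl5, with 46 reads in 5 libraries, was also called lower there.

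Cxcl13, the B cell attractant, had the largest rise. It had 91.0, 135, 49.3 and 51.6 CPM in corticosterone FMRKO libraries and 109, 22.3, 44.6 and 143 in corticosterone controls, against 68.3, 19.5, 17.8 and 10.1 in chow FMRKO libraries and 1.32, 17.9, 27.9 and 21.0 in chow controls. The chow library at 68.3 CPM was a lymph node library, and without these libraries only corticosterone control replicate 2 lay within the chow range. The log2 change was 1.86 ± 0.60 (adjusted p = 0.0116) with all libraries and 2.40 ± 0.58 (adjusted p = 0.00273) without the lymph node ones. Its receptor Cxcr5 had 0.750 to 3.53 CPM under corticosterone against 0.704 to 1.25 in the chow libraries not called lymph node libraries. It did not pass averaged over genotypes. The top corticosterone values, 2.61 and 3.53 CPM, were in FMRKO replicates 2 and 3, which had the highest lymphocyte sums under corticosterone. The other corticosterone libraries had 0.750 to 1.28 CPM. In FMRKO libraries alone Cxcr5 was called lower with all libraries (-2.78 ± 1.10, adjusted p = 0.0493), against 0.86 (adjusted p = 0.245) without the lymph node ones. With a lymphocyte score as covariate it was called higher averaged over genotypes (0.94, adjusted p = 0.00645). Xcl1, the T and NK cell ligand of Xcr1, was at 0 to 0.707 CPM under corticosterone against 0.203 to 1.28 on chow. It fell by 1.67 ± 0.59 (adjusted p = 0.0204) with all libraries and did not pass without the lymph node ones (adjusted p = 0.156). Of 10 listed markers of lymph node stroma, 3 were higher and 2 lower under corticosterone (median log2 change -0.47). Without the lymph node libraries 4 were higher and 1 lower of 9 tested (median 1.05). Their part in the rise of Cxcl13 was not tested.

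**Figure D3:**
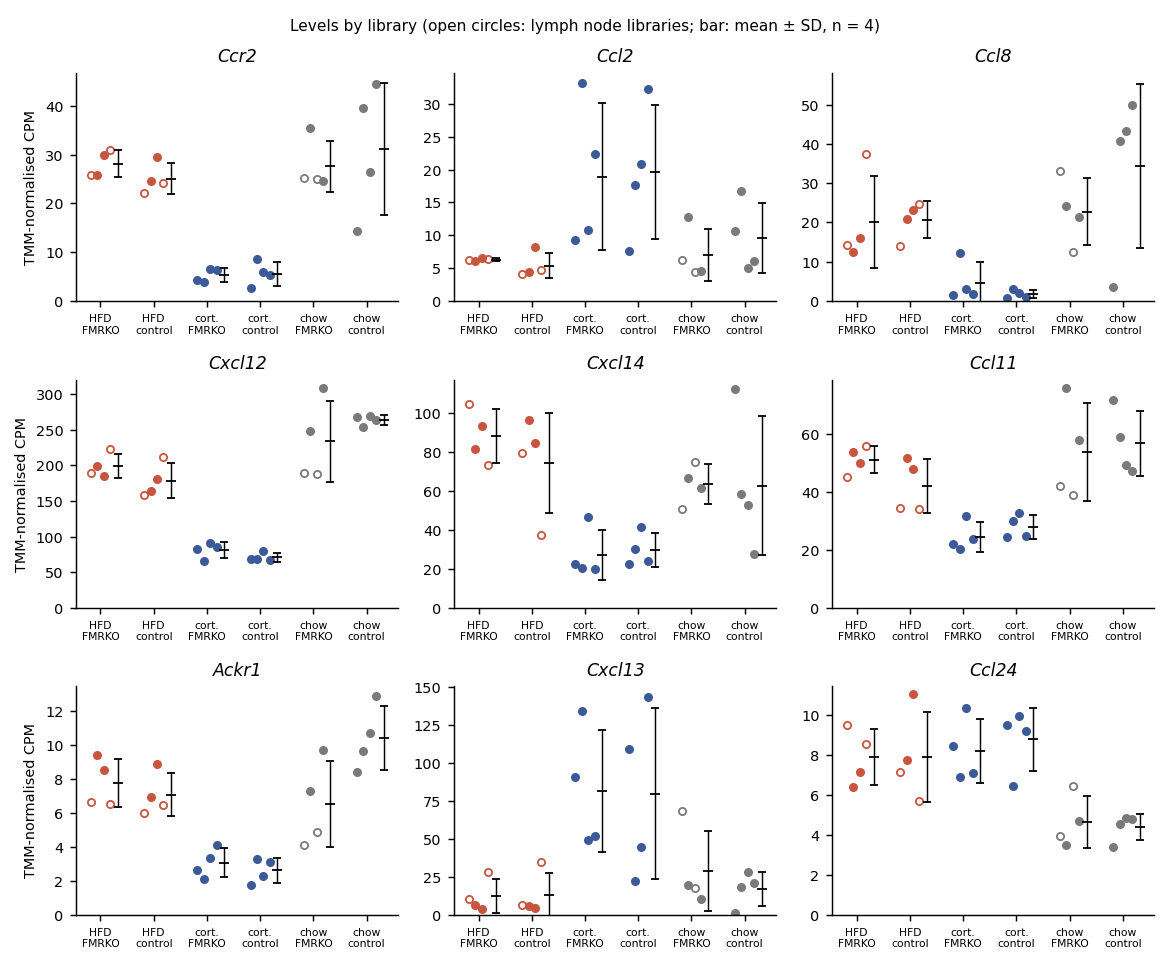
CPM (linear axis from 0) by group for 9 genes; each circle is a library, open circles are lymph node libraries, and bars give mean ± SD (n = 4). Ccr2, Ccl8, Cxcl12, Cxcl14, Ccl11 and Ackr1 are low in the corticosterone groups, Ccl2 and Cxcl13 are high and spread there, and Ccl24 is high on HFD and under corticosterone, at 5.69 to 11.1 CPM against 3.41 to 6.47 on chow.

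Of the interferon-induced ligands, Cxcl9 and Cxcl10 stood apart in 1 library and Cxcl11 did not. Cxcl11 had 5.12, 4.28, 4.64 and 3.18 CPM in corticosterone FMRKO libraries and 3.41, 3.54, 4.25 and 2.99 in corticosterone controls, against 10.9, 19.8, 6.95 and 12.3 in chow FMRKO libraries and 17.1, 6.63, 12.9 and 14.1 in chow controls, without overlap (log2 change -1.69 ± 0.24, adjusted p = 6.93e-06). Cxcl10 had 5.74, 26.9, 4.85 and 5.71 CPM in corticosterone FMRKO libraries and 5.13, 4.86, 5.20 and 4.23 in corticosterone controls, against 10.1 to 20.6 in the chow libraries. Corticosterone FMRKO replicate 2 lay above every chow library and the other 7 lay below them, and Cxcl10 fell by 1.06 ± 0.28 (adjusted p = 0.00296). Cxcl9 had 176 CPM in the same replicate and 8.82 to 13.0 in the other 7 corticosterone libraries, against 20.4 to 43.2 on chow. Its log2 change was -0.42 ± 0.45 (adjusted p = 0.434) with all libraries and -1.56 without that replicate (adjusted p = 2.52e-08). Replicate 2 also had the highest Ccl12 of all libraries at 4.06 CPM, the highest macrophage sum at 2567 CPM and the highest NK cell sum of the corticosterone libraries at 8.35 CPM against 0.810 to 2.15 in the other 7.

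**Figure D4:**
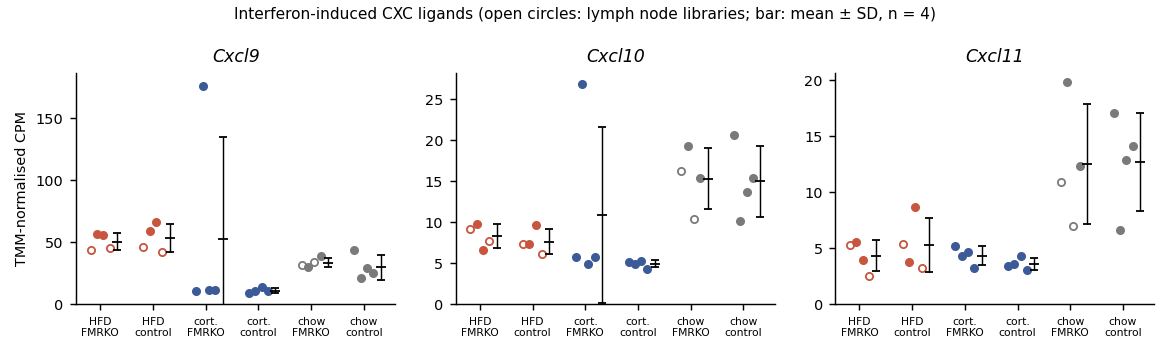
CPM (linear axis from 0) of Cxcl9, Cxcl10 and Cxcl11 by group; each circle is a library, open circles are lymph node libraries, and bars give mean ± SD (n = 4). Corticosterone FMRKO replicate 2 stands at 176 CPM for Cxcl9 and 26.9 CPM for Cxcl10 but at 4.28 CPM for Cxcl11, and the HFD groups are higher than chow for Cxcl9 and lower for Cxcl10 and Cxcl11.

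On HFD, 10 of 50 tested genes passed averaged over genotypes, beside 39.8% of all genes tested. Of these, 2 were higher, beside 20.6% of all genes, and 8 lower, beside 19.2%. The median log2 change was -0.15 over the 50 genes and -0.02 over all genes. Without the lymph node libraries 3 were higher and 7 lower of 48 tested, beside 21.9% and 16.7% of all genes. Within genotypes, 5 genes passed in FMRKO libraries (24.4% of all genes) and 13 in controls (29.2% of all genes). Of the 6 higher in controls, beside 15.3% of all genes, Ccl5, Ccl22, Ccr4, Ccr6 and Cxcr5 are among the 8 genes that mark the lymph node libraries, 2 of which were HFD controls and 0 chow controls. The calls of Ccl24 and of Ccl5 held in controls without those libraries, with Ccl5 at 3.19 ± 0.94 on the log2 scale (adjusted p = 0.0147) with all libraries and 1.68 ± 0.42 (adjusted p = 0.00737) without them. Without those libraries 5 genes passed in FMRKO (21.1% of all genes) and 6 in controls (28.8% of all genes).

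Ccr1 fell most on HFD. It had 2.92, 2.41, 4.23 and 2.20 CPM in HFD FMRKO libraries and 1.69, 1.46, 2.54 and 1.27 in HFD controls, against 5.36, 7.67, 3.46 and 4.05 in chow FMRKO libraries and 2.73, 17.0, 6.36 and 8.59 in chow controls. The ranges overlapped through 3 chow libraries at 2.73 to 4.05 CPM, and the log2 change averaged over genotypes was -1.56 ± 0.29 (adjusted p = 0.000174). Within genotypes Ccr1 passed in controls, with and without the lymph node libraries, and in FMRKO libraries it passed in neither fit. Ccr10 had 1.95 to 3.57 CPM on HFD against 3.85 to 7.67 on chow, without overlap, and fell by 0.95 ± 0.19 (adjusted p = 0.000399). Ccr2 and Ccl2 had log2 changes of -0.14 ± 0.21 and -0.50 ± 0.33 and did not pass. Ccl8 and Cxcl13 had changes of -0.45 ± 0.46 and -0.83 ± 0.59 that did not pass either.

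Cxcl11 and Cxcl10 fell on HFD, and their neighbour Cxcl9 did not pass the test. Cxcl11 had 5.24, 5.50, 3.93 and 2.48 CPM in HFD FMRKO libraries and 5.31, 3.75, 8.65 and 3.22 in HFD controls, against the 6.63 to 19.8 CPM on chow given above. HFD control replicate 3 at 8.65 CPM reached into the chow range, and the log2 change was -1.41 ± 0.24 (adjusted p = 8.71e-05). Cxcl10 had 6.06 to 9.76 CPM on HFD against 10.1 to 20.6, without overlap, and fell by 0.93 ± 0.28 (adjusted p = 0.0109), a call that did not hold in the 18 other libraries (adjusted p = 0.0953). Cxcl9 had 43.5, 56.1, 55.4 and 44.7 CPM in HFD FMRKO libraries and 45.8, 58.2, 66.1 and 41.5 in HFD controls, against 31.4, 29.4, 33.2 and 38.4 in chow FMRKO libraries and 43.2, 20.4, 28.8 and 24.3 in chow controls. Only 1 chow library reached the HFD range. The log2 change of Cxcl9 was 0.73 ± 0.44 (adjusted p = 0.205) with all 24 libraries. It was 0.69 (adjusted p = 0.000232) when corticosterone FMRKO replicate 2, a library outside this comparison that enters the shared estimate of the spread, was left out.

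Among the stromal ligands, Cxcl12 had 189, 199, 185 and 222 CPM in HFD FMRKO libraries and 158, 164, 181 and 212 in HFD controls, beside the chow values given above. It fell by 0.40 ± 0.10 (adjusted p = 0.00214), with an overlap through the chow FMRKO lymph node libraries at 189 and 190 CPM, and by 0.55 ± 0.09 without the lymph node libraries. Cxcl14 and Ccl11 did not pass. Ackr4 had 4.78 to 7.32 CPM on HFD against 6.66 to 15.5 and fell by 0.77 ± 0.16 (adjusted p = 0.000611). Ccl25, a ligand of Ccr9, fell by 0.49 ± 0.14 (adjusted p = 0.00777). Cxcl17, a mucosal chemokine, was at 0.150 to 0.398 CPM against 0.405 to 0.920 and fell by 1.21 ± 0.37 (adjusted p = 0.0116), a call that did not hold in the 18 others (adjusted p = 0.217).

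The rises on HFD were those of Ccl24 and Cxcr4. Ccl24 had 9.50, 6.41, 7.13 and 8.54 CPM in HFD FMRKO libraries and 7.16, 7.73, 11.1 and 5.69 in HFD controls, and rose by 0.81 ± 0.16 (adjusted p = 0.000287). It was the one member called higher in both treatments, against the same chow libraries, with all 24 libraries. Cxcr4 had 21.4, 12.3, 10.8 and 45.1 CPM in HFD FMRKO libraries and 16.7, 12.1, 10.6 and 35.5 in HFD controls, against 24.2, 3.50, 16.3 and 3.95 in chow FMRKO libraries and 3.34, 16.6, 4.50 and 4.23 in chow controls. Of the 3 high chow libraries, 2 were lymph node libraries and the third was chow control replicate 2. The log2 change was 1.14 ± 0.42 (adjusted p = 0.0375) with all libraries and 1.17 ± 0.37 (adjusted p = 0.02) without the lymph node ones. The call was lost under 20 of the 32 alternatives, with adjusted p-values up to 0.161. Averaged over genotypes, Ccl5 did not pass with all libraries (1.23 ± 0.62, adjusted p = 0.121) and rose by 1.09 ± 0.34 (adjusted p = 0.0182) without the lymph node libraries, at 6.70 to 12.6 CPM against 2.53 to 6.13 on chow.

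Ccl6, the member with the highest deposited RPKM, and its neighbour Ccl9 varied widely within groups. Ccl6 had 91.5, 111, 106 and 134 CPM in HFD FMRKO libraries, 76.7, 119, 85.9 and 54.3 in HFD controls, 177, 251, 149 and 200 in corticosterone FMRKO libraries and 124, 178, 150 and 189 in corticosterone controls, against 110, 169, 79.4 and 97.1 in chow FMRKO libraries and 54.9, 253, 184 and 184 in chow controls. Chow controls alone ran from 54.9 to 253 CPM, with replicate 1 lowest and replicate 2 highest among them, as in the macrophage marker sum. Ccl6 and Ccl9 fell on HFD in controls, by 1.01 ± 0.33 (adjusted p = 0.0247) and 1.13 ± 0.36 (adjusted p = 0.0233), and neither passed there once the lymph node libraries were left out (adjusted p = 0.241 and 0.196) or in any other comparison with chow. The neutrophil attractants Cxcl1 and Cxcl2 stayed low, at 0.776 to 4.83 and 0.0823 to 1.79 CPM over all libraries, and did not pass in either treatment.

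**Figure D5:**
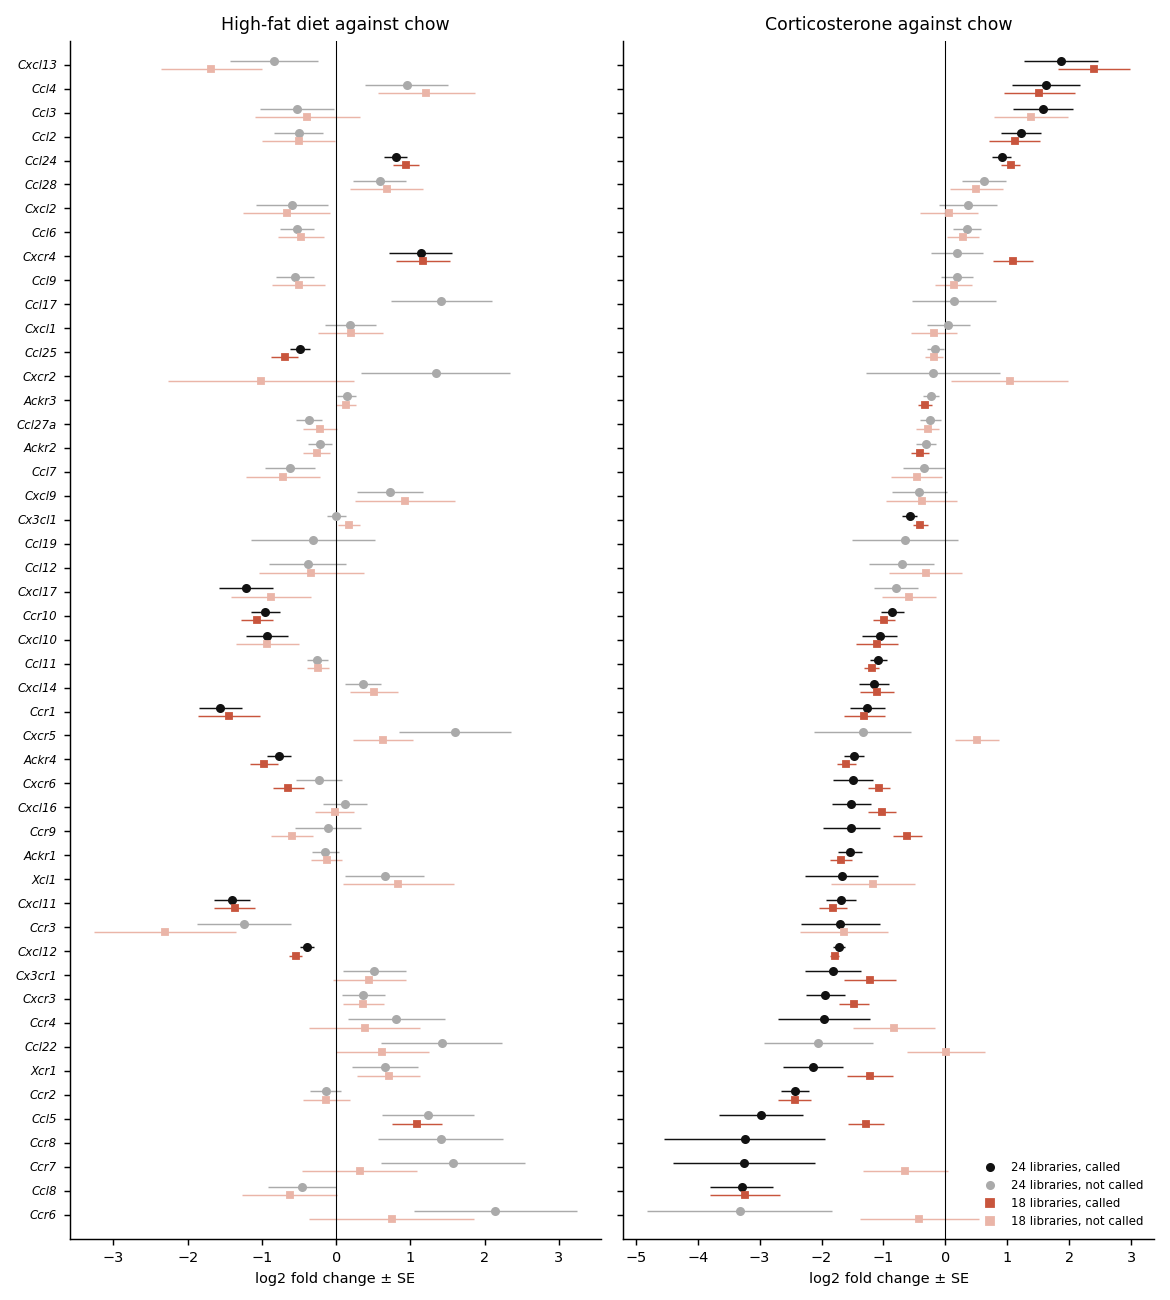
Log2 fold change ± SE of 49 tested genes for HFD against chow (left) and corticosterone against chow (right), averaged over genotypes. Circles are for 24 libraries and squares for the 18 not called lymph node libraries, and dark symbols passed an adjusted p of 0.05. Under corticosterone most points lie left of 0, with Cxcl12 at -1.71 and the narrowest error bar, and the squares of Ccr6, Ccr7 and Ccl22 lie far from their circles.

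FMRKO against control gave 0 members past the threshold in edgeR in every condition, where 0.0101% of all genes passed on HFD, 0.00507% under corticosterone and 0.0101% on chow. Averaged over the 3 conditions 0 members passed as well, beside 0.0355% of all genes. At an unadjusted p under 0.05 there were 0 members on HFD, 4 under corticosterone, 14 on chow and 8 averaged over conditions, of 50 tested. The same held for 3.96%, 4.28%, 11.9% and 6.66% of all genes in these comparisons. DESeq2 called 0 on HFD, under corticosterone and averaged over conditions, and 3 on chow, all higher in FMRKO libraries, beside 0.24% of all genes: Ccl5 (3.77 ± 0.88, adjusted p = 0.0257), Ccl22 (4.30 ± 1.15, adjusted p = 0.0497) and Cxcr5 (3.89 ± 1.04, adjusted p = 0.0497). These 3 are genes of the lymph node libraries, which make up 2 of the 4 FMRKO and 0 of the 4 control libraries on chow. Without them the log2 differences in edgeR were 0.45, 0.25 and 0.26, and 1 member had an unadjusted p under 0.05, as did 5.88% of all genes.

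Under corticosterone the smallest p belonged to Cxcl9, at 10.2, 176, 10.5 and 10.6 CPM in FMRKO libraries against 8.82, 10.1, 13.0 and 10.0 in controls. The log2 difference was 2.30 ± 0.66 (adjusted p = 0.825), and without FMRKO replicate 2 it was -0.01. Cx3cl1 had 4.75, 4.90, 6.38 and 4.93 CPM in FMRKO libraries against 3.66, 3.33, 3.34 and 4.32 in controls, with no overlap, and a log2 difference of 0.52 ± 0.17 that did not pass the correction (adjusted p = 0.965). On HFD, Ackr3 had 56.0, 55.6, 56.2 and 45.4 CPM in FMRKO libraries against 42.7, 49.3, 45.4 and 31.6 in controls, and on chow 26.7, 45.5, 31.8 and 47.7 against 39.0, 47.3, 54.9 and 54.2, so that the difference had opposite signs. The difference of the FMRKO effect between HFD and chow was 0.70 ± 0.26 for Ackr3 (unadjusted p = 0.014, adjusted p = 0.481). In edgeR 0 members passed that test in either treatment, with 13 of 50 at an unadjusted p under 0.05 for HFD (9.83% of all genes) and 5 of 50 for corticosterone (5.94% of all genes), and DESeq2 called 0 in both. Of all genes, 0% passed in either.

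Counts in the 3 lists of related genes stand beside the shares of all genes given above, which under corticosterone were 32% lower and 25.6% higher (27% and 27.4% without the lymph node libraries) and on HFD 19.2% lower and 20.6% higher. Of 39 listed genes that carry the signal of chemokine receptors onward, 21 were lower and 10 higher under corticosterone, and 15 and 12 without the lymph node libraries. The lower ones included Plcb2, a phospholipase of leukocytes (-2.27 ± 0.55). Fgr, a myeloid Src-family kinase, fell by 1.93 ± 0.51, and Pik3cd, a leukocyte lipid kinase, by 1.62 ± 0.42. On HFD 10 of the 39 were higher and 1 lower, among them the GTPase Cdc42 (0.71 ± 0.07) and the G protein subunits Gng2 (0.69 ± 0.10) and Gnb1 (0.46 ± 0.07). Of 18 tested inducers of chemokine transcription, 7 were lower and 2 higher under corticosterone, and 4 and 4 without the lymph node libraries. The interferon-responsive factor Irf1 fell by 1.13 ± 0.13 and the lymphotoxin subunit Ltb by 2.64 ± 1.01 (0.46 without the lymph node libraries, where it did not pass), while the interferon gamma receptor chain Ifngr1 rose by 0.87 ± 0.10. On HFD 2 were lower and 1 higher, with the interleukin 1 receptor Il1r1 at -0.73 ± 0.10.

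Of 15 tested genes linked to chemokines but named outside the family, 7 were lower and 3 higher under corticosterone. Cd74, a receptor of the cytokine Mif and the invariant chain of MHC class II, fell by 2.51 ± 0.33, and the proteases Mmp9 and Dpp4, which cleave chemokines, fell by 1.91 ± 0.16 and 1.58 ± 0.23. Pf4, which encodes the chemokine Cxcl4, rose by 1.01 ± 0.21. On HFD 6 of the 15 were higher and 2 lower, and the chemoattractant chemerin (Rarres2) and its receptor Cmklr1 rose together by 1.12 ± 0.13 and 0.91 ± 0.14. Mmp9 and Dpp4 fell by 0.96 ± 0.16 and 0.73 ± 0.23 on HFD.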

How the data were processed

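Per the labels' protocols, RNA from frozen tissue was isolated by TRIzol with a column step and depleted of ribosomal RNA (KAPA RiboErase). Per the submitters' processing notes, the deposited counts per gene came from GRCm38 alignments by STAR 2.5.1a, counted by featureCounts 1.4.6p-5 of Subread. The sources used here do not state the gene annotation, strand use or how multi-mapped reads were handled, so overlapping genes and near-identical copies are uncertain. The authors' deposited CPM column was recomputed from the counts as a check, and the authors' deposited RPKM column, scaled to library total and gene length per the file headers, was used for levels between genes.

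Counts were analysed with edgeR 4.0.16 (R 4.3.3): filterByExpr with a minimum count of 10, TMM scaling and a quasi-likelihood model with 1 mean per group over 24 libraries (18 residual degrees of freedom, common dispersion 0.113), with two-sided p-values, Benjamini-Hochberg adjustment across every tested gene and a threshold of 0.05. The standard error of a log2 fold change is its size divided by the square root of the F statistic. Libraries had 17925109 counts or more, and the spread between them was a biological coefficient of variation of 34%. For tested members with few reads, such as Ccl19 with 112 and Ccl4 with 274 over all libraries, counting noise also limited the precision. No 2 libraries of a group agreed within sampling noise. The scripts were tested on simulated data. In their deviations from the group means, all 4 same-numbered pairs of HFD libraries across genotypes correlated, at 0.20 to 0.67. The lymph node libraries were replicates 1 and 4 in both genotypes, and pairs of unlike number were not compared. These correlations therefore do not show that replicate numbers pair the libraries. With a replicate block FMRKO against control on HFD also gave 0 members.

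The genes, the lymph node split and the lists were chosen with earlier results of these data known. Any member past the threshold could be named, a set of 18 members and those that passed in a comparison averaged over genotypes got values whatever their result, and up to 4 members of each list with the largest change among those past the threshold were named, though a few results are not reported here. Members with an unadjusted p under 0.05 in a comparison of FMRKO with control or in its difference between conditions, and Ccl6, Ccl7, Ccl9, Ccl12, Cxcl1, Cxcl2 and Pf4, were named after their values were seen. Alternatives were DESeq2 1.42.0, its size factors in edgeR, no filter, leaving out the lymph node, muscle-rich or epithelium-rich libraries or each library in turn, a lymphocyte score as covariate and a replicate block.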

Additional observations from a re-analysis of the deposited data

Results flagged for a closer look

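Of 223 groups of 4 libraries checked, one for each gene and group, 24 held a library far from the other 3. Chance alone gives such a gap in about 1 in 20 groups if values are normally distributed. CPM values need not be, and some rest on few reads, so the 24 are not read as an excess.

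Corticosterone FMRKO replicate 2 stood above the other 3 libraries of its group in 3 ligands, with Cxcl9 at 176 CPM against 10.2 to 10.6, Cxcl10 at 26.9 CPM against 4.85 to 5.74 and Ccl8 at 12.3 CPM against 1.47 to 3.03. Replicate 3 of the same group was high in Cxcl14, at 46.5 CPM against 19.9 to 22.3, and in Cx3cl1, at 6.38 CPM against 4.75 to 4.93.

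The lymph node library HFD FMRKO replicate 4 was high in Ccl8 at 37.5 CPM (12.3 to 16.1 in the others), Ccl19 at 0.785 CPM (0 to 0.0703), Cx3cr1 at 7.41 CPM (2.45 to 2.60) and Cxcr3 at 8.76 CPM (2.62 to 3.66), and low in Ackr3 at 45.4 CPM (55.6 to 56.2). The lymph node library HFD control replicate 4 was high in Cxcl13 at 34.7 CPM (4.20 to 6.25), Ccr3 at 0.673 CPM (0.0695 to 0.165) and Cxcr6 at 8.45 CPM (2.57 to 3.50). The lymph node library chow FMRKO replicate 1 was high in Cxcl13 at 68.3 CPM (10.1 to 19.5).

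Chow control replicate 2, the library with the highest macrophage marker sum on chow, was high in Cxcr4 at 16.6 CPM (3.34 to 4.50), Cxcl16 at 16.2 CPM (6.16 to 7.84), Cx3cr1 at 4.49 CPM (0.711 to 1.14) and Ccl3 at 3.32 CPM (0.395 to 0.792). Chow FMRKO replicate 2 was high in Ccr2 at 35.5 CPM (24.7 to 25.3). The muscle-rich HFD control replicate 3 was high in Ccl2 at 8.17 CPM (4.03 to 4.68).

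The remaining gaps were at low levels. HFD FMRKO replicate 2 had Ccl4 at 0.43 CPM (0.302 to 0.317), corticosterone control replicate 2 had Ccr7 at 0.315 CPM (0.124 to 0.143), and corticosterone control replicate 3 had Cxcr3 at 1.2 CPM (0.574 to 0.656) and Xcl1 at 0.33 CPM (0.0525 to 0.0856).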

How the results depend on the processing

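The counts of members past the threshold for HFD averaged over genotypes (10) and for corticosterone averaged over genotypes (30) and in controls (20) stayed within 1.5 times under the 8 alternatives that change the processing or the set of libraries. For HFD in FMRKO libraries the count was 8 with the lymphocyte score as covariate in place of 5. For HFD in controls it was 13 (29.2% of all genes) in the main fit. It was 6 without the lymph node libraries (28.8% of all genes), 6 with the lymphocyte score and 5 with a replicate block. For corticosterone in FMRKO libraries it was 25 (41.1% of all genes) in the main fit. It was 15 with the lymph node libraries left out (33.8% of all genes). With the epithelium-rich ones left out it was 11, in a fit with 2 FMRKO libraries under corticosterone. DESeq2 called 3 members for FMRKO against control on chow in place of 0. Leaving out each library in turn gave 4 to 7 (HFD, FMRKO), 8 to 16 (HFD, control), 9 to 13 (HFD, averaged), 18 to 26 (corticosterone, FMRKO), 14 to 21 (corticosterone, control), 27 to 33 (corticosterone, averaged) and 0 for each comparison of FMRKO with control. For the other alternatives, the replicate block and single libraries left out among them, shares of all genes are not given. A lower count of members there may follow fewer calls over all genes. The causes were not tested.

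A correlation of deviations over 0.1 was found in 1 of 7 same-numbered pairs across genotypes outside HFD. It was found in 7 of 20 same-numbered pairs across conditions, HFD included. Pairs of unlike number were not compared, so this check cannot show whether replicate numbers pair the libraries. With a replicate block the counts were 4, 5 and 8 for HFD and 20, 15 and 26 for corticosterone in FMRKO, in control and averaged, and 0 for each comparison of FMRKO with control.

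Signs turned as follows. With the lymphocyte score as covariate the log2 change was -0.66 for Ccr6 (HFD, control), 0.0262 for Ackr1 and -0.46 for Ccr7 (HFD, averaged), 0.0292 for Ccl22 and 0.36 for Cxcr5 (corticosterone, FMRKO), and 0.55 for Ccl19 and 0.94 for Cxcr5 (corticosterone, averaged), the last of these past the threshold (adjusted p = 0.00645). Without the lymph node libraries it was 0.70 for Ccl22, 1.39 for Ccr7 and 0.86 for Cxcr5 (corticosterone, FMRKO) and 0.51 for Cxcr5 (averaged). Ccr7 was at 4.46 and 3.44 CPM in corticosterone FMRKO replicates 2 and 3, against 0.0736 and 0.214 in replicates 1 and 4. Ackr1 was 0.0114 with the replicate block (HFD, averaged), Cxcl9 was 0.0103 without the epithelium-rich libraries and Cxcr4 -0.0388 without the muscle-rich libraries (corticosterone, averaged). Without corticosterone FMRKO replicate 2, FMRKO against control under corticosterone was -0.0106 for Cxcl9 and -0.41 for Ccl12, and leaving out other libraries gave up to 2.65 and 1.98. Cx3cl1 on HFD, averaged, was 0.01 and turned to -0.0012 with DESeq2, -0.0323 with no filter, -0.0432 with the lymphocyte score, -0.0656 without the muscle-rich libraries, -0.0209 with the replicate block and -0.0918 to 0.0781 when single libraries were left out.

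The number of libraries limits what can be seen, as do the counts for the 10 members not tested and for tested members with few reads. The lymph node libraries take 2 of 4 from 3 groups, so the fits without them rest on pairs there.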
